A study of Mus musculus with 18 samples.

Results

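The hepcidin axis and iron handling of the liver were followed through 10 genes picked by name: *Hamp*, *Hamp2*, *Tfr2*, *Bmp6*, *Id1*, *Smad7*, *Tfrc*, *Slc40a1*, *Fth1* and *Ftl1*. All 10 were found among the 22524 Ensembl genes of each count list, and all 10 were among the 13353 genes kept for testing, those with 10 or more counts in 50% or more of the A226Y or of the WT mice. Liver RNA had been sequenced from 10 female *Rps2*-A226Y mice and 8 female wild-type (WT) mice of the C57BL/6 strain, all 15 months old, with 1 library per mouse. *Rps2* encodes a protein of the small ribosomal subunit that takes part in the accuracy of decoding, and the comparison asks how liver gene expression differs in mice that carry this error-prone form. The A226Y mice were heterozygous for a knock-in allele whose floxed transcriptional stop is removed by Cre driven from the CMV promoter, which is active in all tissues, and the WT mice carried the same CMV-Cre transgene. As the study describes the line, excision was always partial, so that an A226Y liver is a mosaic of cells with the mutant allele and cells with a single working copy of *Rps2*. The labels do not give litters, cages or collection days.

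*Rps2*, summed over its alleles, lay between 46.9 and 83.0 CPM in the A226Y mice and between 103.9 and 143.1 CPM in the WT mice, with no overlap (CPM, read counts scaled with TMM to a common library size). Total counts ran from 23850565 to 62126131 per mouse. A pair of mice stood apart from their genotype, mouse 29 of the A226Y group and mouse 33 of the WT group. The root mean square difference of a mouse from the median of the others of its genotype, in log2 CPM over the 13353 genes, was 0.62 for A226Y mouse 29 and 0.53 for WT mouse 33, against 0.26 to 0.43 for the rest. Several values that rest on one of them are given with and without it. The 10 hepatocyte markers summed to between 84715 and 195981 CPM, the lowest in A226Y mouse 29 and the highest in WT mouse 33.

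Hepcidin, the product of *Hamp*, is a small peptide hormone that the hepatocyte secretes. It binds ferroportin, the iron exporter encoded by *Slc40a1*, and has it degraded, so that less iron enters the plasma from the gut, from macrophages that recycle red cells and from liver stores. Its gene is switched on by BMP6 from the sinusoidal endothelium through BMP receptors, hemojuvelin and SMAD proteins when iron is plentiful, and by interleukin 6 through STAT3 in inflammation. Transferrin receptor 2 senses iron-loaded transferrin on the hepatocyte, while transferrin receptor 1 (*Tfrc*) takes the iron in and the ferritin chains (*Fth1*, *Ftl1*) store it.

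Of the 10 genes, 1 changed between the genotypes and 9 did not pass the test. *Hamp2* was lower in A226Y liver, at −1.20 on the log2 scale with a standard error (SE) of 0.40, and edgeR's quasi-likelihood test gave an adjusted p of 0.0479. Among all tested genes 14.3% passed the same threshold, 7.03% lower and 7.27% higher in A226Y, so 1 of 10 was no more than the background. At an unadjusted p under 0.05, 2 of the 10 passed, against 29.6% of all tested genes. The median log2 fold change of the 10 genes was −0.06, against −0.00 for all tested genes, with 7 of the 10 below 0. No gene of the 10 separated the genotypes fully, a pattern that 0.285% of tested genes showed with A226Y lower and 0.352% with A226Y higher.

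**Figure D1:**
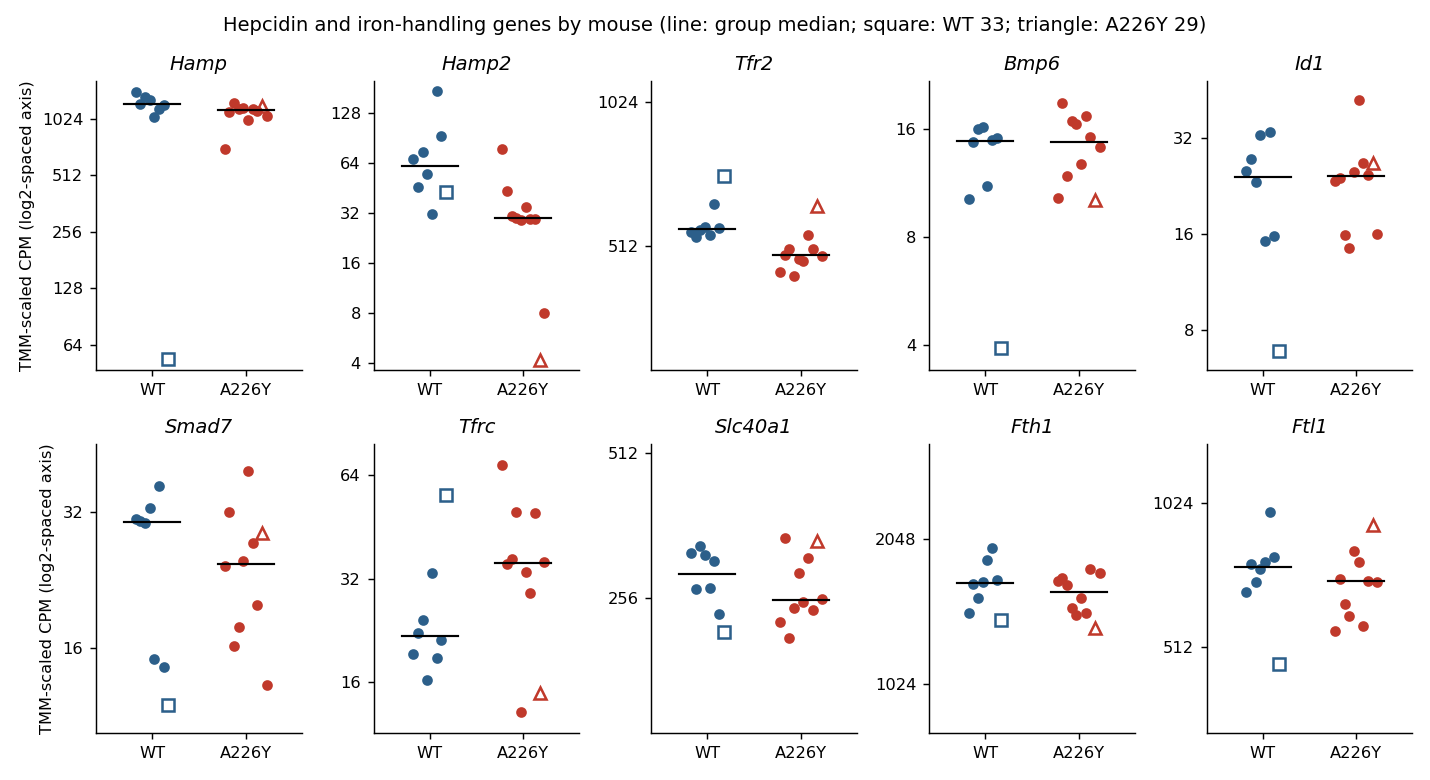
Level of each gene in each mouse, as TMM-scaled CPM on a log axis, with a line at the group median, a square for WT mouse 33 and a triangle for A226Y mouse 29. *Hamp2* and *Tfr2* sit lower in most A226Y mice, and in WT mouse 33 *Hamp* was at 53.9 CPM, far below every other mouse.

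*Hamp* (ENSMUSG00000050440, chromosome 7 of GRCm38 from 30942368 to 30944032, minus strand) was the most abundant of the 10 per base of transcript. Its level per kilobase had a median of 2811 CPM over the 18 mice and ranked 22nd among the 13300 tested genes with a known length. The other levels per kilobase followed in the order *Fth1* (1104), *Ftl1* (732), *Tfr2* (175.2), *Hamp2* (89.0), *Slc40a1* (79.5), *Id1* (21.02), *Tfrc* (6.4), *Smad7* (6.1) and *Bmp6* (4.1). Read over all mice, the order had only 2 clear steps, between *Ftl1* and *Tfr2* and between *Slc40a1* and *Id1*, and every other neighbouring pair overlapped. That of *Hamp* and *Fth1* did so only through WT mouse 33, in which *Hamp* was at 131.3 CPM per kilobase.

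*Hamp2* (ENSMUSG00000056978, chromosome 7 from 30922372 to 30924681, minus strand) is the second hepcidin gene of the mouse, a neighbour of *Hamp*. The transcripts of the pair were identical at 94.6% of 410 aligned bases. Of the stretches of 50 bases, the read length the methods give, 60 occurred in both, which is 16.6% of those of *Hamp* and 15.5% of those of *Hamp2*, so part of the reads could be counted for either gene. The exons of *Hamp2* also share 89 bases with *Gm44662* on the other strand, a gene absent from the count lists. Whether the counting used strand is not given in the sources used here, so the counts of *Hamp2* are uncertain to that extent.

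*Hamp* itself did not pass the test. In A226Y mice it ran from 704 to 1233 CPM with a median of 1133, and in WT mice from 53.9 to 1411 CPM with a median of 1218. The ranges overlapped, and the low end of each group was 1 mouse, WT mouse 33 and A226Y mouse 3, the other A226Y mice being at 1007 CPM or more. The log2 fold change was −0.00 (SE 0.33, adjusted p = 0.997). Without WT mouse 33 the other 7 WT mice lay between 1045 and 1411 CPM, and all 10 A226Y mice were below their mean of 1239 ± 121 CPM (SD, n = 7). The log2 fold change was then −0.19 (SE 0.09, adjusted p = 0.195), and the groups still overlapped.

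*Hamp2* was lower in A226Y. It ran from 4.14 to 77.7 CPM in A226Y mice (median 29.6) and from 31.6 to 173.6 CPM in WT mice (median 61.1). In 7 of the 10 A226Y mice it was below every WT mouse, and only A226Y mouse 3, the A226Y mouse with the least *Hamp*, lay above the WT median. The lowest values were those of A226Y mice 29 and 32, at 4.14 and 7.94 CPM. The two-sided exact permutation test over all 43758 divisions of the mice gave p = 0.0077.

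The call of *Hamp2* stood at the edge of the threshold. The log2 fold change was −1.28 without WT mouse 33 (adjusted p = 0.0449) and −1.06 without A226Y mouse 29 (adjusted p = 0.0353). It was lost when any 1 of 12 mice was left out, namely WT mouse 4, 13, 14, 24 or 28 or A226Y mouse 7, 11, 15, 18, 22, 23 or 32, with adjusted p from 0.0596 to 0.138. WT mouse 24, with 173.6 CPM, moved the value most, to −0.89. The adjusted p was 0.0502 with RLE size factors, 0.0577 with no filter beyond 1 count, 0.089 and 0.061 after correction for transcript length and GC content, and 0.233 with 4 surrogate variables, a fit in which the log2 fold change was −0.81.

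Added together, the 2 hepcidin genes lay between 782 and 1264 CPM in A226Y mice and between 96.7 and 1478 CPM in WT mice, a log2 difference of 0.23 that did not pass (two-sided exact permutation test, p = 0.943). This value rested on WT mouse 33. The other 7 WT mice lay between 1076 and 1478 CPM with a median of 1329, all 10 A226Y mice were below that median, and the difference was then −0.24 (exact permutation test, p = 0.00818, chosen after the data were seen and not adjusted). Leaving out any 1 of the other 17 mice kept it between 0.21 and 0.32, with p from 0.778 to 0.986 in the same exact test. *Hamp2* contributed a median of 2.51% of the sum in A226Y mice and 4.92% in WT mice, or 4.57% without WT mouse 33. In 5 of the A226Y mice the share stayed between 2.41% and 2.56%, and in A226Y mice 29 and 32 it was 0.346% and 0.745%. In WT mouse 33, where *Hamp* was at 53.9 CPM, *Hamp2* was at 42.8 CPM, inside the range of the other 7 WT mice, and made up 44.3% of the sum.

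Upstream of hepcidin, *Tfr2* (ENSMUSG00000029716, chromosome 5 from 137569840 to 137587481, plus strand), the iron sensor of the hepatocyte surface, was slightly lower in A226Y but did not pass the test. A226Y mice ran from 445 to 620 CPM (median 491) and WT mice from 534 to 719 CPM (median 556). In 8 of the 10 A226Y mice *Tfr2* was below every WT mouse, and the exceptions were A226Y mice 22 and 29. The log2 fold change was −0.21 (SE 0.07, adjusted p = 0.060), with p = 0.0048 from the exact permutation test on this gene alone. It passed with DESeq2 (adjusted p = 0.0223), without WT mouse 6 (adjusted p = 0.0476) and without A226Y mouse 29 (log2 fold change −0.25, adjusted p = 0.013). Without WT mouse 33, the highest of all, it was −0.16 (adjusted p = 0.113).

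*Bmp6* (ENSMUSG00000039004, chromosome 13 from 38345107 to 38500302, plus strand), the ligand, spanned 10.2 to 19.0 CPM in A226Y mice (median 14.7) and 3.92 to 16.2 CPM in WT mice (median 14.9). Its log2 fold change was 0.17 (SE 0.20, adjusted p = 0.589) and 0.04 without WT mouse 33, and 4 A226Y mice were above every WT mouse. It shares 224 exon bases with *Txndc5* on the other strand, and whether the counting used strand is not given in the sources used here, so its counts are uncertain to that extent. Markers of the sinusoidal endothelium, where BMP6 is made, gave 0 of 12 past the threshold in edgeR, DESeq2 and limma-voom, against 14.3%, 18.1% and 14% of all tested genes, and 1 of 12 at an unadjusted p under 0.05 in each of them, against 29.6% of all tested genes in edgeR. In bulk tissue, fewer cells of a type and less RNA per cell cannot be told apart.

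*Id1* and *Smad7* are direct targets of the BMP-activated SMAD proteins, and SMAD7 in turn restrains the pathway. *Id1* (ENSMUSG00000042745, chromosome 2 from 152736251 to 152737410, plus strand) had medians of 24.4 CPM in A226Y and 24.3 CPM in WT mice, with ranges of 14.5 to 42.1 and 6.89 to 33.5. *Smad7* (ENSMUSG00000025880, chromosome 18 from 75367529 to 75395935, plus strand) had medians of 24.6 and 30.3 CPM, with ranges of 13.2 to 39.3 and 11.9 to 36.5. Neither differed beyond the spread between mice, with log2 fold changes of 0.09 (SE 0.24, adjusted p = 0.843) and −0.05 (SE 0.23, adjusted p = 0.903). The sign of both turned in some settings, *Id1* to −0.05 without WT mouse 33 and *Smad7* to 0.04 without WT mouse 24, while without WT mouse 33 *Smad7* was at −0.16.

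The pair moved together from mouse to mouse. Pearson's r of their log2 CPM was 0.89 over the 10 A226Y mice and 0.93 over the 8 WT mice (exact permutation or 100000 permutations, p = 0.00097 and 0.000198, adjusted p = 0.0291 and 0.0179 over the 90 relations among the 10 genes in both genotypes). Spearman's rho was 0.81 and 0.95, with adjusted p = 0.216 and 0.0513 by permutation. Leaving out the 2 mice farthest from the median of *Id1* left r at 0.87 and 0.93. In WT mice *Fth1* and *Ftl1* also moved together, with r = 0.87 (exact permutation test, adjusted p = 0.0291) and rho = 0.95, and r = 0.86 without the 2 farthest mice. In A226Y mice their r was −0.34 and, without the 2 farthest mice, 0.41. The other 87 relations did not pass the correction by r, and none of the 90 did by rho. All of these values share libraries and total depth between the genes of a pair.

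**Figure D2:**
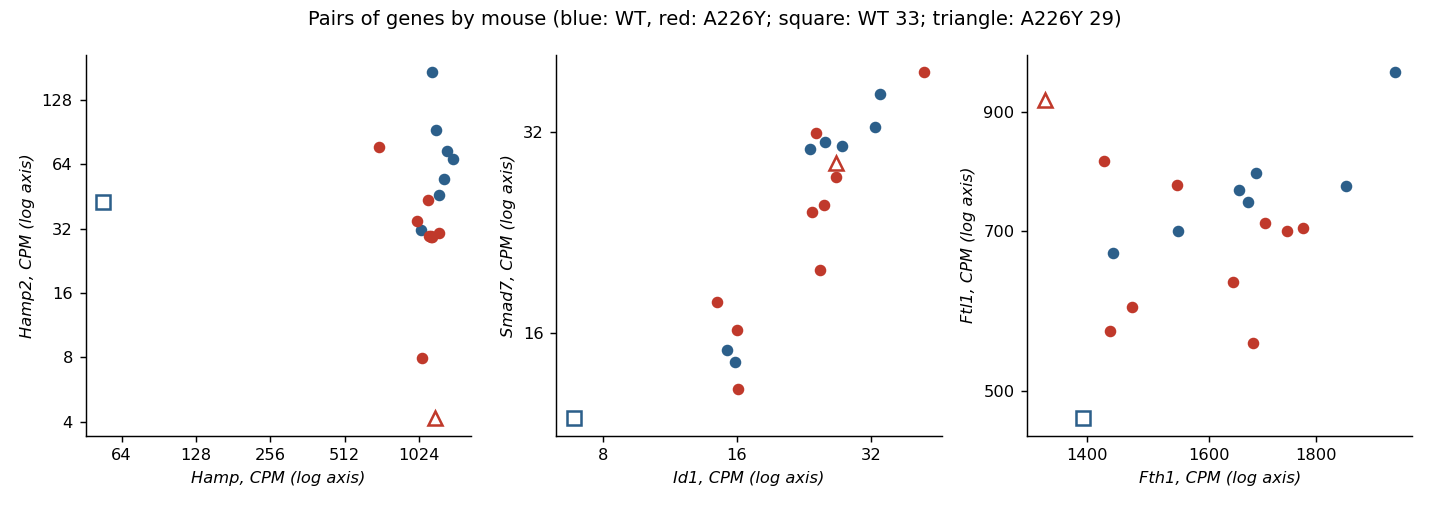
*Hamp2* against *Hamp*, *Smad7* against *Id1* and *Ftl1* against *Fth1* in each mouse, as CPM on log axes, with WT in blue, A226Y in red, a square for WT mouse 33 and a triangle for A226Y mouse 29. *Id1* and *Smad7* rise together in both genotypes, while in WT mouse 33 *Hamp* is low and *Hamp2* is not.

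The uptake receptor *Tfrc* (ENSMUSG00000022797, chromosome 16 from 32608920 to 32632794, plus strand), the ferritin genes *Fth1* (ENSMUSG00000024661, chromosome 19 from 9980598 to 9985098, plus strand) and *Ftl1* (ENSMUSG00000050708, chromosome 7 from 45457944 to 45459884, minus strand) and the exporter gene *Slc40a1* (ENSMUSG00000025993, chromosome 1 from 45908068 to 45926523, minus strand) are the 4 of the 10 whose transcripts hold iron-responsive elements. These are hairpins that iron regulatory proteins bind when iron is scarce. In the 5′ untranslated region they hold back translation, and in the 3′ untranslated region of *Tfrc* they keep the mRNA from decay. The hairpins are shown because they place the 4 genes under the same control with opposite effects, and capitals mark the 6-base loop. They were read from GENCODE M21 transcripts. Their GRCm38 positions are chr19:9982733-9982761 (plus strand), chr7:45459778-45459806 (minus strand) and chr1:45925464-45925492 (minus strand) for the 5′ hairpins. For *Tfrc* they are chr16:32631220-32631248, chr16:32631599-32631627, chr16:32631664-32631692 and chr16:32631711-32631739 (plus strand).
Fth1: tcctgcttcaaCAGTGCttgaacggaacc
Ftl1: tcttgcttcaaCAGTGTttgaacggaaca
Slc40a1: aacttcagctaCAGTGTtagctaagtttg
Tfrc: attatcggaagCAGTGCcttccataatta
Tfrc: attatcgggagCAGTGTcttccataatgc
Tfrc: tatatcggagaCAGTGAtctccatatgtt
Tfrc: attatcgggaaCAGTGTttcccataattt
The search took a C, a fully paired stem and a loop of CAGTG followed by A, C or T. Such a hairpin was found in 201 of 21337 protein-coding transcripts (0.942%), 1 transcript per counted gene. *Tfrc*, with 4, was the only 1 with 3 or more. Hairpins of another form were not searched for.

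*Tfrc* was the member with the largest difference upwards, and it did not pass the test. A226Y mice ran from 13.1 to 68.7 CPM (median 35.6) and WT mice from 16.3 to 56.0 CPM (median 21.8), so the ranges overlapped. The log2 fold change was 0.47 (SE 0.29, adjusted p = 0.274), with p = 0.193 from the exact permutation test. WT mouse 33 had the highest WT value, 55.98 CPM, and the other 7 WT mice stayed between 16.3 and 33.2 CPM. In 7 of the 10 A226Y mice *Tfrc* was above all 7 of them, and A226Y mice 15 and 29 were below all 7. Without WT mouse 33 the log2 fold change was 0.73 (SE 0.26, adjusted p = 0.0725). *Tfrc* is also made by erythroblasts, and the 8 tested genes of red cells and erythroblasts had a median of −0.41 on the log2 scale, all below 0. In edgeR 0 of the 8 passed, against 14.3% of all tested genes, and 1 was at an unadjusted p under 0.05, against 29.6%. In DESeq2 1 passed, against 18.1% of all tested genes. The edgeR median was −0.16 without WT mouse 33, and 7 of the 8 were then below 0. It was −0.56 without A226Y mouse 29, with 8 of 8 below 0 and 7 at an unadjusted p under 0.05. In that fit 1 passed the threshold, against 19.3% of all tested genes. The 10 listed red cell genes summed to 170 to 436 CPM in A226Y and 216 to 778 CPM in WT mice, the last in WT mouse 33, with at most 439 CPM in the others. The part of red cells in the level of *Tfrc* was not tested.

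The mRNA of the exporter and of the ferritin chains differed by less than the spread between mice, and their protein is not part of these data. *Slc40a1* ran from 211 to 340.4 CPM in A226Y (median 253) and from 218 to 328 CPM in WT mice (median 287), which is a log2 difference of −0.06 (SE 0.10, adjusted p = 0.745). *Fth1* ran from 1337 to 1774 CPM (median 1594) and from 1393 to 1963 CPM (median 1663), a log2 fold change of −0.07 (SE 0.08, adjusted p = 0.605). *Ftl1* ran from 553 to 922 CPM (median 703) and from 472 to 979 CPM (median 754), a log2 fold change of −0.08 (SE 0.12, adjusted p = 0.698). For each of the 3 the genotypes overlapped. The values of *Slc40a1*, *Fth1* and *Ftl1* were −0.11, −0.10 and −0.15 without WT mouse 33, and without A226Y mouse 29 they were at −0.10, −0.04 and −0.13, none past the threshold. For *Ftl1*, 78.9% of the stretches of 50 bases also occur in pseudogenes or other annotated genes, so its level is uncertain, while for *Fth1* the share was 4.01% and for *Slc40a1* 0%. *Ftl1* also shares 355 exon bases with *Gm10252* on the other strand, with the same uncertainty about the strand setting.

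**Figure D3:**
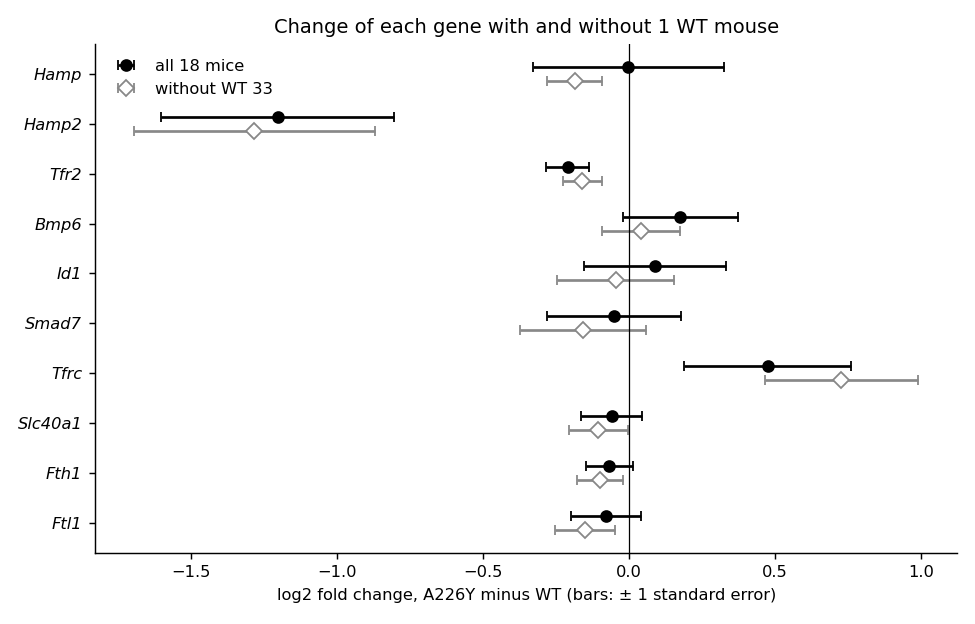
Log2 fold change of each gene, A226Y minus WT, with bars of 1 standard error, from all 18 mice (filled circles) and without WT mouse 33 (open diamonds). *Hamp2* lies at −1.20 and −1.28, *Tfrc* moves from 0.47 to 0.73, and the standard error of *Hamp* falls from 0.33 to 0.09.

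Ferroportin in the liver is mostly that of Kupffer cells, the resident macrophages, and their markers were compared beside it. Of 12 Kupffer cell markers, 11 had values below 0 (median −0.43 on the log2 scale), and 1 passed the threshold, or 8.33% against 14.3% of all tested genes. It was *Clec4f*, a receptor of Kupffer cells (−0.65, SE 0.19, adjusted p = 0.026). Their summed level was 386 to 1527 CPM in A226Y mice (median 532) and 587 to 1205 CPM in WT mice (median 851), and the highest was that of A226Y mouse 29. Without that mouse 9 of the 12 were lower at the threshold, with a median of −0.62, while 10% of all tested genes were then lower. With 4 surrogate variables 0 of the 12 passed in edgeR, in a fit that called 0.374% of all tested genes, and the median was −0.14. At an unadjusted p under 0.05 3 of the 12 passed in that fit, against 14.9% of all tested genes. What part the Kupffer cell markers have in the value of *Slc40a1* was not tested.

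In WT mouse 33 *Hamp*, *Bmp6* and several target genes of BMP-SMAD signalling were low and acute phase genes high. The genes named here for this mouse were chosen after their values were seen, other than the 10. Against the median of the other 7 WT mice, *Hamp* was 22.9-fold lower, *Bmp6* 3.82-fold, *Id1* 3.67-fold and *Smad7* 2.55-fold lower, and each was the lowest of all 18 mice. Of the 22 other genes of the BMP-SMAD list, 3 were lower by more than 1 on the log2 scale, *Atoh8* (−2.24), *Smad9* (−2.16) and *Id3* (−1.28), against 1.46% of all tested genes. The median of that list was −0.18, and the further targets *Smad6* and *Id2* differed by −0.69 and −0.66. By its difference from the other WT mice, *Hamp* ranked 4th lowest and *Bmp6* 44th lowest of the 13353 genes.

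In the same mouse *Tfrc* was 2.63-fold higher, *Tfr2* 1.30-fold higher, and *Ftl1* 1.62-fold lower than the median of the other 7. Acute phase genes were high, 11 of 15 by more than 1 on the log2 scale, against 4.47% of all tested genes. Among them were *Lcn2* (4.61), which binds bacterial siderophores, the haem-binding *Hpx* (1.59) and the serum amyloid genes *Saa1* (3.30) and *Saa2* (2.88), for which 1 other WT mouse was higher still. Of the 9 genes of the interleukin 6 branch, 2 were more than 1 higher, *Socs3*, the feedback inhibitor (1.51), and *Stat3* (1.17). *Il6ra* was higher by 0.70 and *Cebpa* was at −0.50, and the median of the list was 0.25. All 9 genes of B and plasma cells and 6 of 8 red cell genes were also more than 1 higher. Their part in the level of *Hamp* was not tested.

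A226Y mouse 29 also had high acute phase genes, but its *Hamp* was not low. There, 13 of 15 acute phase genes were more than 1 higher on the log2 scale than in the other 9 A226Y mice, against 6.10% of all tested genes, *Saa2* by 9.42 and *Lcn2* by 4.98, and *Socs3* was higher by 1.85. So were 10 of 12 Kupffer cell markers, 4 of 8 red cell genes and 4 of 9 genes of B and plasma cells by more than 1, beside the same 6.10%. In the interleukin 6 list 2 of 9 were, *Socs3* and *Cebpb* (1.32), while *Cebpa* was at −0.76 and the median was −0.04. *Hamp* was at 1195 CPM, the second highest of the A226Y mice, *Id1* was the second highest and *Smad7* the third highest, and *Bmp6* was the lowest of the group at 10.2 CPM. *Hamp2* was at its lowest of all 18 mice, 4.14 CPM, and *Tfrc* at 14.9 CPM was second lowest in the group. As each pattern is that of 1 mouse, it has no replicate.

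**Figure D4:**
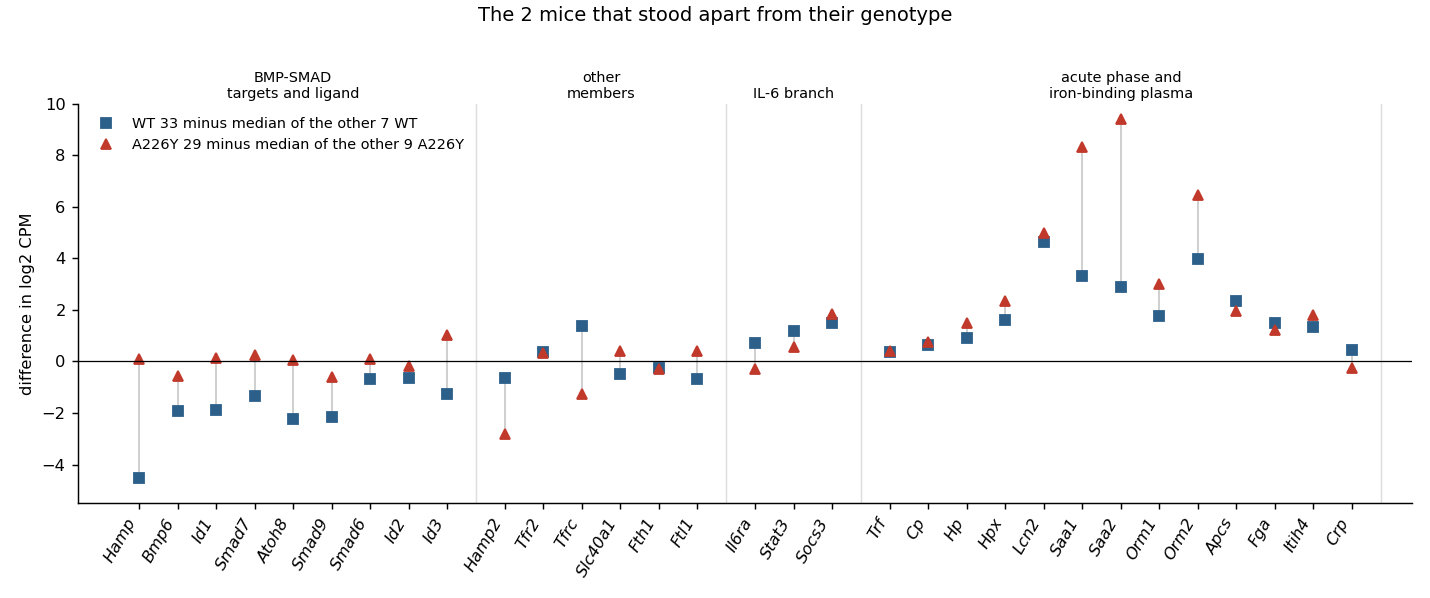
Difference in log2 CPM of WT mouse 33 from the median of the other 7 WT mice (squares) and of A226Y mouse 29 from the median of the other 9 A226Y mice (triangles), for genes chosen after their values were seen. Acute phase genes are high in both mice, whereas *Hamp* differs by −4.51 in WT mouse 33 and by 0.09 in A226Y mouse 29.

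After the mean of each genotype was taken off, the genes whose log2 CPM followed that of *Hamp* most closely over the 18 mice were *Atoh8* (r = 0.92), *Id4* (0.88), *Cyp4a14* (0.86), *Apoa5* (0.85) and *Bmp6* (0.85). Those that ran most against it were *Ctbs* (−0.88), *Col4a3* (−0.88), *B3galt1* (−0.87), *Dnajc12* (−0.86) and *Mug2* (−0.85). These values rest largely on WT mouse 33. Without it r was 0.44 for *Atoh8*, 0.58 for *Id4* and 0.32 for *Bmp6*, and −0.65 for *Ctbs*, while *Col4a3* and *B3galt1* turned to 0.05 and 0.11. For *Tfrc* r was −0.56 with and without WT mouse 33, and for *Slc40a1* it was 0.48 and 0.38. These values are descriptions over mice that also share a library and its depth.

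The wider machinery of iron was described with 98 further genes in 6 lists, of which 97 were matched and 93 were tested. Of the 93, 5 were higher and 10 lower in A226Y, which is 16.1% against 14.3% of all tested genes, and their median was −0.05 on the log2 scale. Without WT mouse 33, where 13.5% of all tested genes passed, 18 did, 14 of them among the 15, and without A226Y mouse 29, where 19.3% of all tested genes passed, 22 did with all 15 among them. Leaving out WT mouse 14 or 21 left 8 or 9, while over all tested genes it left 9.41% or 10.6%. With 4 surrogate variables 0 of the 93 passed in edgeR (20 at an unadjusted p under 0.05, against 14.9% of all tested genes), in a fit that called 0.374% of all tested genes. In that fit 10 of the 15 were smaller by over 1.5 times, *Tmprss6* at −0.18, *Slc46a1* at −0.15, *Aco1* at −0.14, *Tyk2* at −0.06, *Flvcr2* at 0.25, *Hscb* at −0.34, *Fdx1* at −0.28, *Fdxr* at −0.20, *Nfs1* at −0.09 and *Ncoa4* at −0.00, none past the threshold. DESeq2 called 21, limma-voom 15 and the fit corrected for GC content 8, beside 18.1%, 14% and 12.2% of all tested genes. Of the 8 called with that correction, 7 were among the 15.

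**Figure D5:**
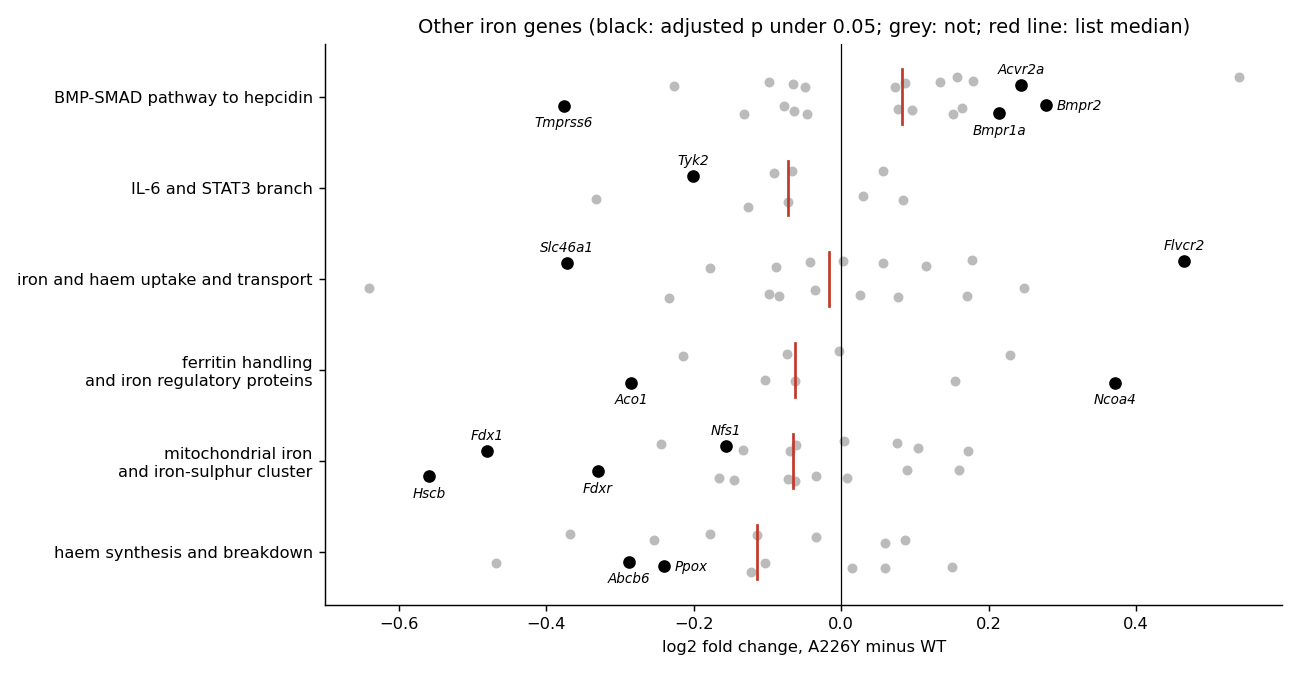
Log2 fold change, A226Y minus WT, of the 93 other iron genes by list, in black where the adjusted p was under 0.05 and in grey where it was not, with a red line at the median of each list. Of the black points 10 lie below 0 and 5 above it, and no list has a median beyond −0.11 or 0.08.

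In the BMP-SMAD list, 3 of 22 genes were higher (7.27% of all tested genes were), 1 was lower and 18 did not pass. The 3 encode receptors, *Bmpr2* (0.28, SE 0.07, adjusted p = 0.014), *Acvr2a* (0.24, adjusted p = 0.013) and *Bmpr1a* (0.21, adjusted p = 0.015), the first 2 of type II and the last of type I. *Tmprss6*, a hepatocyte protease that cuts hemojuvelin and so damps hepcidin, was lower. It ran from 349 to 520 CPM in A226Y mice and from 482 to 629 CPM in WT mice, which is a log2 difference of −0.38 (SE 0.08, adjusted p = 0.007), and it passed whichever mouse was left out. *Hjv*, hemojuvelin itself, was at −0.10 (adjusted p = 0.522) and *Hfe*, a partner of the transferrin receptors, at 0.08 (adjusted p = 0.362). The calls of all 3 receptors were lost with the length offset, where *Bmpr2* fell to 0.11 (adjusted p = 0.266), *Bmpr1a* to 0.14 (adjusted p = 0.0778) and *Acvr2a* to 0.18 (adjusted p = 0.0501). *Bmpr1a* was also lost with the GC offset (0.14, adjusted p = 0.0705).

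In the interleukin 6 list, 1 of 9 passed (11.1%, against 14.3% of all tested genes) and was lower, the kinase gene *Tyk2* (−0.20, SE 0.06, adjusted p = 0.040), which passed in only 9 of the 18 leave-outs. It was at −0.18 without WT mouse 33 (adjusted p = 0.0726), where the 1 gene of the list that passed was *Cebpa* (−0.39, adjusted p = 0.0309), named after its value was seen, and at −0.13 with the GC offset (adjusted p = 0.185). Of 15 acute phase genes 0 passed in edgeR and limma-voom, at an adjusted or an unadjusted p under 0.05, and 3 were lower in DESeq2, where 8.77% of all tested genes were. Without A226Y mouse 29, 5 were lower in edgeR, against 10% of all tested genes, and the median was −0.44, while without WT mouse 33, 0 passed (1 at an unadjusted p under 0.05), 14 of the 15 were above 0 and the median was 0.24. Their summed level was 16878 to 73998 CPM in A226Y and 17063 to 51492 CPM in WT mice, with medians of 19842 and 19953.

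In the list of iron and haem uptake, 1 of 18 was higher and 1 lower, which is 11.1% against 14.3% of all tested genes. *Flvcr2*, a transporter first described for haem, was higher by 0.47 (SE 0.13, adjusted p = 0.023), and *Slc46a1*, which carries folate and haem, was lower, at −0.37 (SE 0.09, adjusted p = 0.008). The plasma carriers did not pass the test, with *Trf*, transferrin, at −0.09 (adjusted p = 0.508) and *Cp*, the ferroxidase ceruloplasmin, at −0.10 (adjusted p = 0.660). Without WT mouse 33 *Trf* was at −0.04 and *Cp* at 0.005, and without A226Y mouse 29 they were at −0.13 and −0.19, none past the threshold. *Slc39a14*, which takes up iron not bound to transferrin, was at −0.23 (adjusted p = 0.145) and at −0.11 without WT mouse 33.

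Among genes of ferritin handling and of the iron regulatory proteins, 1 of 9 was higher and 1 lower, which is 22.2% against 14.3% of all tested genes. *Ncoa4*, the receptor that delivers ferritin for autophagy, was higher by 0.37 (SE 0.11, adjusted p = 0.032). It passed in 12 of the 18 leave-outs and not with the GC offset (adjusted p = 0.0634). *Aco1*, which encodes iron regulatory protein 1 and cytosolic aconitase, was lower, with 156 to 232 CPM in A226Y and 204 to 277 CPM in WT mice (−0.28, SE 0.08, adjusted p = 0.023), and passed in 16 of the 18 leave-outs but not with the GC offset (−0.25, adjusted p = 0.0562). The other 7 genes of the list did not pass.

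Of 20 genes of mitochondrial iron and iron-sulphur clusters, 4 were lower (7.03% of all tested genes were), 0 higher and 16 did not pass. *Hscb*, a co-chaperone of cluster transfer, was at −0.56 (SE 0.12, adjusted p = 0.005), and *Fdx1*, a ferredoxin, at −0.48 (SE 0.10, adjusted p = 0.005). *Fdxr*, the reductase that supplies ferredoxin with electrons, was at −0.33 (adjusted p = 0.030) and *Nfs1*, the cysteine desulphurase, at −0.16 (adjusted p = 0.033). *Hscb* and *Fdx1* passed whichever mouse was left out, while *Fdxr* and *Nfs1* passed in 11 and 13 of the 18 leave-outs and with neither the length nor the GC offset (adjusted p = 0.0604 and 0.081 for *Fdxr*, 0.149 and 0.0826 for *Nfs1*). The median of the list was −0.07.

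Of 15 genes of haem synthesis and breakdown, 2 were lower, against 7.03% of all tested genes, and 13 did not pass. *Ppox*, an enzyme late in haem synthesis, was at −0.24 (SE 0.06, adjusted p = 0.009) and *Abcb6*, a porphyrin transporter, at −0.29 (SE 0.09, adjusted p = 0.040). *Abcb6* passed in only 8 of the 18 leave-outs and not with the length or GC offset (adjusted p = 0.0706 and 0.147), and *Ppox* did not pass with the GC offset (adjusted p = 0.0562). *Hmox1*, which opens the haem ring and releases its iron, was at 0.15 (adjusted p = 0.652) with its highest value, 78.3 CPM, in A226Y mouse 29, and at −0.05 without that mouse. Leaving out WT mouse 33 raised the number lower to 4, in a fit with 6.49% of all tested genes lower.

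Among the other marker lists, *Apob* was higher (0.29, adjusted p = 0.033) and *Apoa2* lower (−0.31, adjusted p = 0.048) of 10 hepatocyte genes, 20% against 14.3% of all tested genes, and their median was −0.03. *Apob* and *Apoa2* passed in 10 and 5 of the 18 leave-outs, and neither passed with the length offset (0.13, adjusted p = 0.223, and −0.21, adjusted p = 0.154) or the GC offset (adjusted p = 0.0638 and 0.0928). Of 10 stellate cell genes 4 passed, against 14.3% of all tested genes. Of the 10, 5 were above 0 and 5 below, with a median log2 fold change of 0.00. Their summed level had a median of 431 CPM in A226Y and 384 CPM in WT mice. With 4 surrogate variables 0 of the 10 passed, in a fit that called 0.374% of all tested genes. The collagen genes *Col1a1* (−0.77, adjusted p = 0.016), *Col3a1* (−0.60, adjusted p = 0.005) and *Col1a2*, the last named after its value was seen, were lower and *Hgf*, hepatocyte growth factor, was higher (0.34, adjusted p = 0.021, and 0.0714 with the GC offset). Without WT mouse 33 or with the GC offset *Col1a2* did not pass, and 2 genes of the list were lower in each fit. With 4 surrogate variables *Col1a1*, *Col3a1* and *Hgf* were at −0.65, −0.27 and 0.30. Of 9 genes of B and plasma cells *Cd74*, the invariant chain of MHC class II, was lower (−0.83, adjusted p = 0.011), and their median moved from −0.74 to −0.10 without WT mouse 33.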

How the data were processed

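For each liver the authors deposited raw counts (whole reads assigned to each Ensembl gene). The methods name single-end reads, RSEM and GRCm37, while the submitters' processing notes name fastp, STAR, featureCounts and GRCm38, and which made the files is not settled. The strand setting is not given in the sources used here. Symbols and positions came from GENCODE M21 on GRCm38. A gene was tested if 50% or more of the A226Y or of the WT mice had 10 counts or more, using edgeR 4.0.16 (R 4.3.3, TMM scaling, quasi-likelihood test, no covariates, Benjamini-Hochberg over all 13353 genes, threshold 0.05). For single members, log2 CPM was also tested by exact two-sided permutation (prior count 2). Alternatives were other scalings and filters, DESeq2 1.42.0, limma-voom 3.58.1, 4 surrogate variables (sva 3.50.0), length and GC offsets, and leaving out each mouse. The fits were tested on simulated data.

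The members and lists were chosen with earlier results of these data known. Named were all members, every called iron gene (at most 5 per list), 8 iron genes whatever their result, at most 3 called markers per list, and the 5 genes most and least correlated with *Hamp*. The fits without WT mouse 33 under other tools, and the leave-outs of the summed hepcidin genes, were added after seeing the data. Promoter sequences are not reported here.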

Additional observations from a re-analysis of the deposited data

Results flagged for a closer look

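A mouse was marked where its gap to the nearest mouse of its genotype was a larger part of the range than Dixon's test allows at 95%. Over 64 groups of values, chance alone gives about 3.2 such marks, and 10 were found.

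Of these, 3 concern the 10 genes. *Hamp* was 704 CPM in A226Y mouse 3, against 1007 to 1233 CPM in the other A226Y mice, and 53.9 CPM in WT mouse 33, against 1045 to 1411 CPM in the other WT mice. *Bmp6* was 3.92 CPM in WT mouse 33, against 10.2 to 16.2 CPM.

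WT mouse 33 also had the highest WT values of *Slc39a14* (354 CPM) and *Cp* (1603 CPM). A226Y mouse 29 had the highest A226Y values of *Trf* (23698 CPM) and *Cp* (1610 CPM) and the lowest of *Acvr2a* (28.9 CPM) and *Abcb6* (62.0 CPM). *Ppox* was highest among A226Y mice in mouse 18 (18.9 CPM). The causes were not tested.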

How the results depend on the processing

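The number of the 10 genes past the threshold was 1, and 0 with RLE size factors, with no filter beyond 1 count, with 4 surrogate variables and with the length or GC offset, at an unadjusted p under 0.05 in 2, 2, 3, 2 and 2 of them. It was 2 with DESeq2 and 0 to 2 over the leave-outs. Without WT mouse 33 it was 0 with surrogate variables, the length offset and the GC offset. Of the 93 other iron genes, where 15 passed, 0 did so with surrogate variables, 8 with the GC offset and 8 to 22 over the leave-outs. Without WT mouse 33, 3, 8 and 6 passed with surrogate variables, the length offset and the GC offset. Over all tested genes, where 1910 passed, 50 did with surrogate variables and 302 with them and without WT mouse 33, and the leave-outs gave 1257 (without WT mouse 14) to 2572. With library sizes only, 67.9% of the calls were higher in A226Y, against 50.8% with TMM.

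The sign of 4 genes turned. *Hamp* was 0.022 with library sizes only, 0.38 with limma-voom, 0.066 with surrogate variables, 0.12 and 0.014 with the length and GC offsets, and −0.19 to 0.059 over the leave-outs. *Id1* was −0.046 with DESeq2, −0.045 with limma-voom and −0.016 with library sizes only, each without WT mouse 33, and −0.046 to 0.19 over the leave-outs. *Smad7* was 0.20 with surrogate variables, 0.15 with them and without WT mouse 33, 0.017 with the GC offset, and −0.16 to 0.042 over the leave-outs. *Slc40a1* was 0.084 with surrogate variables and 0.037 with them and without WT mouse 33. The sum of *Hamp* and *Hamp2*, at 0.23, was −0.24 without WT mouse 33 and reached 0.32 over the other leave-outs. The causes were not tested. The signs of *Hamp2*, *Tfr2*, *Bmp6*, *Tfrc*, *Fth1* and *Ftl1* did not turn in any fit run. The exact permutation tests stayed on their side of 0.05 with library sizes only. No paired analysis was possible because the 2 genotypes share no replicate numbers, which are mouse numbers.

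The lowest count of a member in any mouse was 112 (*Bmp6*), so counting error is small and the spread between mice sets the precision. Depth limits the least abundant genes of the lists.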
